A study of Mus musculus with 9 samples.

Results

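Neutrophils from the bone marrow of wild-type mice were compared after 2 days in a stiff and in a soft gel. The comparison holds 6 of the 9 libraries of the series: the 3 titled as high stiffness (5.7 kPa elastic modulus) and the 3 titled as low stiffness (1.5 kPa), which the study set as its control. Libraries were chosen by title alone, and all genes of the count tables entered. The other 3 libraries, from gels of 2.6 kPa (middle), served to estimate the spread and are described once at the end. All cells were embedded in GelMA, a gelatin that carries methacryloyl groups and can be crosslinked to a set stiffness, and were kept in RPMI medium with fetal bovine serum before the gel was lysed and RNA was taken. The sources used here do not give strain, sex, age or cell purity. The labels number the libraries 1 to 3 in each group without saying whether these are separate animals or cultures, so p-values measure only the spread between libraries, which may be technical.

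Neutrophils are short-lived phagocytes that carry ready-made granules of proteases, peroxidase and antimicrobial proteins, and that also make cytokines and chemokines on demand. Cells sense the stiffness of what surrounds them through integrins and other matrix receptors, which connect through focal adhesion proteins to actin, to small GTPases and to stretch-gated channels. In tumours and inflamed tissue, neutrophils are often sorted into a pro-inflammatory N1 state, marked by genes such as Il12a and Tnf, and an N2 state, marked by genes such as Arg1 and Il10, and the title of the series asks how stiffness bears on these states.

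Depth was similar in both groups, at 13172879 to 18345503 total counts per library in low and 14093074 to 18194779 in high, with 14302 to 14865 genes detected. Of 22173 genes in the tables, 12094 were abundant enough to test. Neutrophil markers were present in every library, but replicate 1 stood apart: the 16 markers summed to 3040 CPM (counts scaled to the library total) in low and 3550 CPM in high of replicate 1, against 12600 to 22200 CPM in the other 4 libraries. The 16 macrophage markers summed to 5200 to 8780 CPM over all 6. In bulk libraries such as these, fewer cells of a type and less RNA per cell cannot be told apart.

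With the replicate number as a block, 1869 of 12094 genes (15.5%) differed between high and low at an adjusted p under 0.05 by edgeR's quasi-likelihood test. Of these, 813 (6.72%) were higher and 1056 (8.73%) lower in high, and 141 of the rises and 279 of the falls were at least 2-fold. "Rose" and "fell" below mean a call in this fit, fold changes are fitted log2 values of high minus low ± standard error (n = 3 libraries per group), and differences within a replicate number are given for replicates 1, 2 and 3 in that order. Over all tested genes the median fitted log2 fold change was 0.00. Without the block 11 genes were called, all of them among the 1869, and 934 had an unadjusted p under 0.05. The count also moved with single libraries. It was 1049 without low replicate 2, 808 without low replicate 3, 605 without high replicate 2 and 914 without high replicate 3, and it was 3183, 262 and 435 when replicate number 1, 2 or 3 was left out whole. No called gene changed direction in any of these fits. Setting aside the pairing, the 3 high and 3 low CPM values did not overlap in 1531 genes (12.7%), above in high for 713 (5.90%) and below for 818 (6.76%). These included 768 of the 1869 called genes (41.1%).

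Replicate 1 had the same direction as replicates 2 and 3 for most called genes, and departed from them for many others. Of the 813 rises, 799 had the same direction in all 3 replicate numbers, and so did 1042 of the 1056 falls. The remaining 14 rises and 14 falls went the opposite way in replicate 1 only. Because the block fit used replicate 1, a fit of replicates 2 and 3 alone was read against it: there 3183 of 12214 genes (26.1%) were called, 1458 higher (11.9%) and 1725 lower (14.1%). In replicate 1, which that fit did not use, 2351 of the 3183 (73.9%, exact 95% binomial interval 72.3% to 75.4%, counting error only) had the same direction, beside 61.6% of all genes tested. For falls the share was 77.7% and for rises 69.3%. As these genes were chosen by their size in replicates 2 and 3, a smaller size elsewhere follows in part from the choice and is given only as a description: the median log2 difference of the called rises was 0.51 in replicates 2 and 3 and 0.17 in replicate 1, and that of the falls was -0.67 and -0.36. Across the 9331 genes that averaged 5 CPM or more, the log2 differences of replicates 2 and 3 had a Pearson correlation of 0.845, and those of replicate 1 had 0.448 with replicate 2 and 0.402 with replicate 3. These are descriptions over genes, which are not independent. Over all tested genes the SD of the log2 difference was 0.593, 0.539 and 0.578 in replicates 1 to 3. Where an adjusted p is given for replicate 1 against the others, replicate 1 has a single library per group, and the spread comes only from replicates 2 and 3. Libraries of those numbers differed far less from each other (chi-square per degree of freedom of 7.18 in low and 11.3 in high) than from replicate 1 (138 to 203). Such p-values assume that replicate 1 varies as the others do, and they and those of the fit of replicates 2 and 3 alone can be too small. List counts given below as without replicate 1 come from that last fit and stand beside its 26.1% of all genes. Other list counts stand beside 15.5% of all tested genes, 6.72% higher and 8.73% lower.

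**Figure D1:**
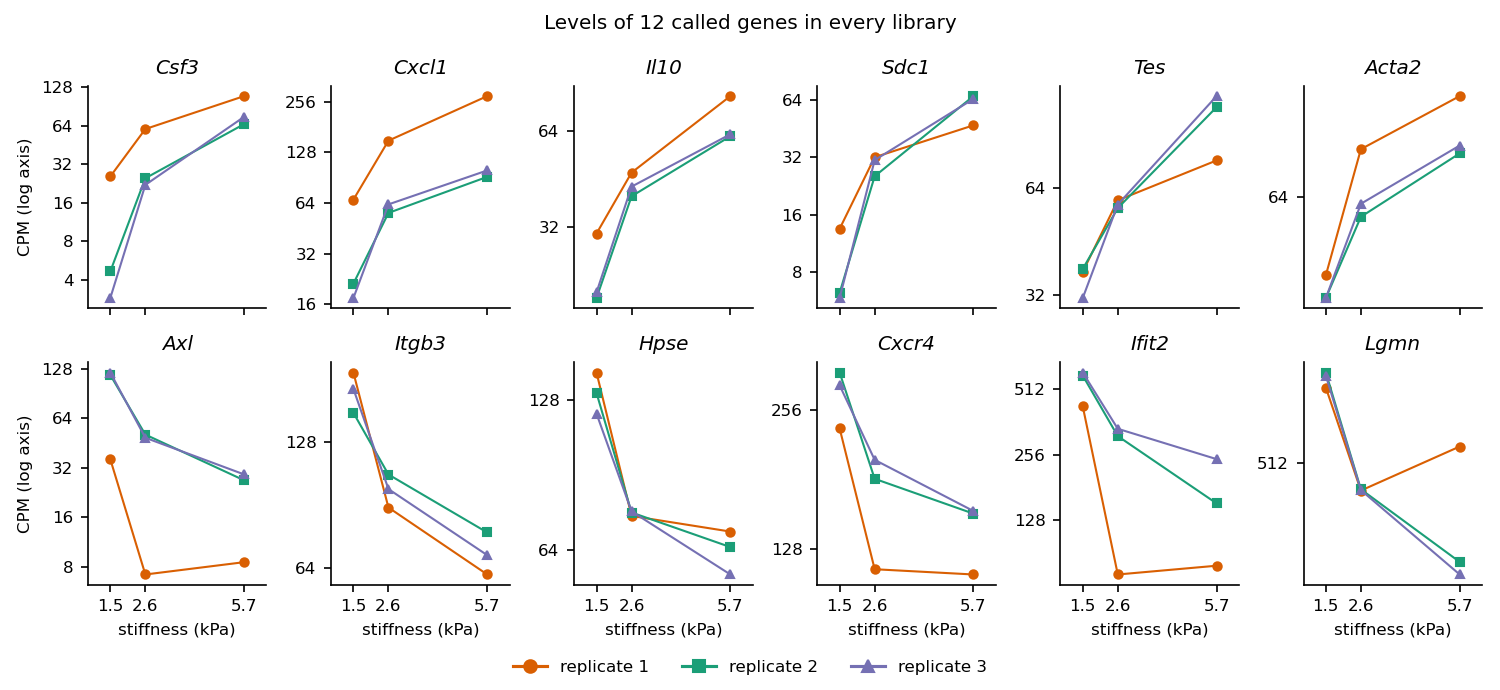
Levels of 12 called genes in all 9 libraries, in CPM on log axes, against gel stiffness in kPa. Lines join libraries of the same replicate number. The upper row shows genes higher and the lower row genes lower in high; in every panel each high library lies above (upper row) or below (lower row) each low library, while middle replicate 1 lies below high replicate 1 for Axl, Ifit2 and Lgmn.

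Among secreted signals, the largest rise was in Csf3, the growth factor that drives neutrophil production. Csf3 was at 25.7, 4.66 and 2.89 CPM in low replicates 1 to 3 and at 109, 65.9 and 75.1 CPM in high. All high libraries were above all low ones, and the log2 difference in replicate 1 minus that in replicates 2 and 3 was -2.13 ± 0.25 (adjusted p = 0.000477). The fold change of 3.32 ± 0.50 lost its call without low replicate 2 (adjusted p = 0.0721), high replicate 2 (0.08) or high replicate 3 (0.0515).

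The neutrophil attractants Cxcl1, Cxcl2 and Cxcl3, ligands of the receptor CXCR2, rose together. Cxcl1 went from 66.9, 21.2 and 17.4 CPM in low to 276, 91.4 and 99.8 CPM in high (2.21 ± 0.12). Cxcl3 went from 91.1, 58.6 and 48.0 to 361, 157 and 196 CPM (1.80 ± 0.14), and Cxcl2 from 2490, 1690 and 1500 to 4250, 3880 and 4160 CPM (1.14 ± 0.14). No high value of any of these genes overlapped a low one, and each call held without any 1 of the 6 libraries. The macrophage inflammatory proteins Ccl3 (0.57 ± 0.12) and Ccl4 (0.67 ± 0.09), which draw monocytes and lymphocytes, rose in each replicate number, although their CPM in low replicate 1 exceeded some high values. Ccl3 lost its call without low replicate 3 (adjusted p = 0.0674). Ccl2, a monocyte attractant, fell (-0.61 ± 0.15, from 180, 223 and 186 to 122, 121 and 145 CPM), and Cxcl10 and Ccl5 did not pass (0.17 ± 0.30 and -0.09 ± 0.44). Of 17 chemokine genes tested, 6 rose and 3 fell, with a median of 0.17 (8 and 6 without replicate 1). Ccl2 was not called without low replicate 1 (adjusted p = 0.079), low replicate 2 (0.123), high replicate 2 (0.158) or high replicate 3 (0.109).

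Motifs were counted in RefSeq promoters (build GRCm38.p6, 250 bases before to 50 after the start), which were found for 9737 of the 12094 tested genes. A kappa B motif, the site to which NF-kB binds, stood on either strand in 5.07% of all 12380 promoters, in 6.34% of those of rises and in 5.24% of those of falls. It stood in 5 of 11 chemokine promoters (45.5%) and in 12 of 33 promoters (36.4%) of the NF-kB list described below. That list was drawn up from subunits, regulators and targets of NF-kB, so a high share there is no result of these data. The 15 largest rises named and the called members of the NF-kB, chemokine and cytokine lists were ranked, and other named genes were not. Among those ranked, the 3 largest rises that hold the motif before the start are shown, on the gene's strand with the motif in capitals. They are shown because these are CXCR2 ligands and a member of the NF-kB list. The lines hold Cxcl1 at chr5:90891134-90891224 (plus strand), Cxcl3 at chr5:90785988-90786078 (plus strand) and Sod2 at chr17:13007716-13007805 (plus strand), all upstream of the start. In Cxcl1 and Cxcl3 the capitals are the same 11 letters, which match on both strands at overlapping positions. A match of letters is a description and shows no binding.
Cxcl1: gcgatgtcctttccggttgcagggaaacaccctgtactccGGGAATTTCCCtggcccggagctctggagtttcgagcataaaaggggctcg
Cxcl3: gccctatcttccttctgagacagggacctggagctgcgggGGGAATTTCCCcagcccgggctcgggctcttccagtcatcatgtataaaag
Sod2: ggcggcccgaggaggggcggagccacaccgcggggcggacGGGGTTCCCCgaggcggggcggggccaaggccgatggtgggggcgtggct

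Cytokine genes rose in part. Il12a, the p35 subunit of interleukin-12, went from 10.3, 20.6 and 19.5 CPM to 28.4, 109 and 133 CPM (2.27 ± 0.22), with no overlap and a smaller difference in replicate 1 (-1.13 ± 0.23 relative to the others, adjusted p = 0.012). Il10, an anti-inflammatory cytokine counted as an N2 marker, went from 30.4, 19.0 and 19.8 to 82.8, 61.8 and 62.7 CPM (1.6 ± 0.10). Its 3 differences, 1.44, 1.70 and 1.65, lay close together. Ebi3, a subunit shared by interleukins 27 and 35, rose (0.63 ± 0.08), and Il15, which sustains lymphocytes, fell (-0.58 ± 0.09, 130, 33.2 and 32.9 to 88.4, 22.5 and 21.4 CPM). Of 25 cytokine genes tested, 8 rose and 1 fell (14 and 4 without replicate 1). Il1b went from 1150, 2150 and 1880 to 1400, 4920 and 5360 CPM (0.98 ± 0.21), a difference of 0.29, 1.2 and 1.51, and was not called without low replicate 2 (adjusted p = 0.0855), high replicate 2 (0.0934) or high replicate 3 (0.0848). Tnf rose in each replicate number by a like amount (0.62, 0.48 and 0.47).

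Arg1, the arginase that marks N2 cells, rose from 2.11, 1.95 and 1.69 CPM to 24, 5.77 and 33.3 CPM. The groups did not overlap, yet high replicate 2 was far below the other 2 high libraries, and the fold change of 3.24 ± 0.66 was not called without low replicate 3 (adjusted p = 0.118) or high replicate 1 (0.0522). Genes around it that handle arginine also rose: Slc7a2, an arginine transporter (2.50 ± 0.41, from 1.13, 0.650 and 0.543 to 4.83, 2.49 and 5.76 CPM), Slc7a1, another (0.53 ± 0.10), Arg2, the mitochondrial arginase (0.60 ± 0.10), and Odc1, which makes the polyamine putrescine (0.53 ± 0.09). Of 21 genes of arginine, polyamine and nitric oxide use, a list that does not hold the 2 transporters, 5 rose and 0 fell (8 and 1 without replicate 1). Its other rises were Oat, ornithine aminotransferase (0.43 ± 0.10), and Ass1, argininosuccinate synthase (0.35 ± 0.09). Oat was not called without low replicate 3 (adjusted p = 0.0776), high replicate 2 (0.0986) or high replicate 3 (0.0597), and Ass1 was not called without a low or high library of replicate 2 or 3 (0.0816 to 0.135). Nos2, the inducible nitric oxide synthase, did not pass (0.24 ± 0.09, adjusted p = 0.0831).

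By counts, N1 markers had 7 rises and 0 falls among 14 tested and N2 markers 3 and 3 among 13. Of the N1 rises, Il12b (0.78 ± 0.23) was called in only 1 of the 6 fits that leave out 1 library (adjusted p from 0.0846 to 0.166 in the others). Of the N2 falls, Prok2 (-0.91 ± 0.20) was not called without high replicate 1 (adjusted p = 0.121), high replicate 2 (0.129) or high replicate 3 (0.094). Without replicate 1 the counts were 10 and 0 for N1 and 4 and 5 for N2. The N1 median was 0.26, 0.54 and 0.71 in replicates 1 to 3 and the N2 median 0.25, -0.08 and -0.11. Marker genes whose differences pointed opposite ways in replicate 1 and in replicates 2 and 3 included Il6 (-0.75, 1.70 and 2.30), Cd86 (-0.85, 0.32 and 0.65), Mrc1 (1.12, -0.33 and -0.73), Ccl5 (-1.39, 0.13 and 0.89) and Chil3 (0.31, -1.12 and -1.34). For each of these 5 the difference between replicate 1 and the others passed its own test (adjusted p from 0.000183 to 0.00714). None of them was called between high and low. Cd80, a costimulatory ligand, was at 32.3, 36.3 and 39.6 CPM in low and 38.2, 115 and 129 in high, and did not pass (1.27 ± 0.32, adjusted p = 0.0572).

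Growth and angiogenic factors were mixed (5 rises and 3 falls of 25; 7 and 7 without replicate 1). Nrg1, an EGF-family ligand, rose (1.59 ± 0.27), from 2.26, 7.91 and 6.15 to 5.19, 15.1 and 33.4 CPM, and Sema6b, a guidance ligand, rose (0.72 ± 0.15; adjusted p = 0.0658 without low replicate 3 and 0.052 without high replicate 3). Vegfa, the main angiogenic factor and an N2 marker, was at 704, 475 and 472 CPM in low and 492, 450 and 437 in high and did not pass (-0.24 ± 0.10, adjusted p = 0.139).

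Of 23 receptors for attractants, 6 rose and 7 fell. The formyl peptide receptor gene Fpr1, which senses bacterial and mitochondrial peptides, was at 356, 952 and 865 CPM in low and 812, 2110 and 2160 CPM in high (1.22 ± 0.11), and Fpr2 rose alike (1.07 ± 0.13). Gpr84, a receptor for medium-chain fatty acids, rose from 40.2, 53.1 and 56.7 to 79.3, 189 and 195 CPM (1.55 ± 0.15). By contrast, Cxcr4, which holds neutrophils in the marrow and is counted among N2 markers, fell from 234, 309 and 290 to 113, 153 and 155 CPM (-0.99 ± 0.10). The groups overlap for Fpr1, whose low replicate 2 exceeded high replicate 1, but not for Gpr84 or Cxcr4, and within each replicate number all of these genes kept their direction. Cxcr1, a receptor for interleukin-8 type chemokines, fell (-1.74 ± 0.35, not called without high replicate 3, adjusted p = 0.087).

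Other surface receptors moved both ways. Siglece, an inhibitory sialic acid receptor of neutrophils, rose from 85.8, 128 and 143 to 168, 362 and 394 CPM (1.32 ± 0.11), and Treml4, a receptor of the TREM family, from 55.3, 59.7 and 66.1 to 138, 125 and 135 CPM (1.13 ± 0.09). Neither group overlapped the other for either gene. Cd300lb, an activating receptor of the CD300 family, fell (-0.53 ± 0.08). Of 34 Fc, lectin and Siglec family receptors, 10 rose and 5 fell (16 and 8 without replicate 1). Among 33 cytokine receptors, 5 rose and 1 fell (18.2%, beside 15.5% of all tested genes), and 13 and 2 without replicate 1 (beside 26.1% of all genes). Csf1r, the receptor for macrophage colony-stimulating factor, rose (0.59 ± 0.10), as did Il4ra, a chain of the interleukin-4 receptor (0.52 ± 0.11), and Tnfrsf11a, the receptor RANK, fell (-0.60 ± 0.13). Leaving out low replicate 3 or high replicate 3 ended the calls of Il4ra (adjusted p = 0.0596 and 0.0501) and of Tnfrsf11a (0.0877 and 0.06), and high replicate 2 that of Tnfrsf11a (0.0789).

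Heparan sulfate genes moved both ways. Sdc1, a heparan sulfate proteoglycan of the cell surface, rose from 13.5, 6.23 and 5.85 CPM in low to 47.2, 67.2 and 65.0 CPM in high (2.88 ± 0.34), with a smaller difference in replicate 1 (-1.64 ± 0.22 relative to the others, adjusted p = 0.000871). It was not called when replicate number 2 or 3 was left out whole, a loss shared by many other named genes. Of 223 named genes, not all of which were called with the block, 122 lost their call without replicate number 2 and 105 without number 3. Hpse, the heparanase that cuts such chains, fell from 145, 132 and 120 to 69.7, 64.9 and 57.2 CPM (-1.05 ± 0.09), by 1.05, 1.02 and 1.07 in replicates 1 to 3. Sdc3, another syndecan, fell (-0.87 ± 0.13, 239, 518 and 560 to 124, 295 and 316 CPM). The groups did not overlap for Sdc1 or Hpse, and they did for Sdc3.

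Integrin chains split almost evenly, with 5 rises and 6 falls of 20 tested. Itgb3, the beta chain of vitronectin receptors, fell from 187, 150 and 171 to 61.9, 77.9 and 68.8 CPM (-1.29 ± 0.11). Itga6, a laminin-binding chain, fell from 61.1, 132 and 129 to 31.8, 58.7 and 44.3 CPM (-1.21 ± 0.15), and Itga2, a collagen-binding chain of low level, from 2.34, 5.42 and 5.91 to 0.569, 1.30 and 1.68 CPM (-1.95 ± 0.26). Each of these 3 had lower values in all high than in all low libraries. Itga1, the other collagen-binding chain named here, rose from 2.49, 7.10 and 6.69 to 4.62, 17.2 and 28.9 CPM (1.52 ± 0.20). High replicate 1 of Itga1 was below low replicates 2 and 3, so that only the pairing by number separates the groups for it. Other adhesion molecules that fell were Jaml, which helps leukocytes cross epithelium (-1.11 ± 0.14), and Vcam1 (-1.16 ± 0.20). In that wider list of 31 adhesion receptors, 3 rose and 5 fell (7 and 10 without replicate 1).

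On the inner side of adhesions, Tes, the focal adhesion protein testin, was at 37.2, 37.9 and 31.4 CPM in low and 76.5, 108 and 116 CPM in high (1.49 ± 0.14), with no overlap. Vasp, which promotes actin filament growth at adhesions, rose (0.82 ± 0.11), as did Vcl, the adhesion linker vinculin (0.44 ± 0.09). Cass4, a scaffold of the Cas family, was at 5.43, 36.4 and 33.5 CPM in low and 5.97, 183 and 197 CPM in high. Nearly all of its rise of 2.02 ± 0.43 came from replicates 2 and 3 (0.13, 2.33 and 2.55), and its call was lost without low replicate 2 (adjusted p = 0.166), low replicate 3 (0.135), high replicate 2 (0.178) or high replicate 3 (0.155). Of 41 focal adhesion genes, 7 rose and 1 fell (19.5%, beside 15.5% of all tested genes), and the list median was 0.03. Without replicate 1, 11 rose and 5 fell, beside 26.1% of all genes called.

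Of 52 actin cytoskeleton genes tested, 11 rose and 2 fell (17 and 5 without replicate 1), and the list median was 0.14, 0.15 and 0.14 in replicates 1 to 3. In 6 of the 52 (11.5%, beside 8.36% of all tested genes) high minus low was called different in replicate 1. Among them were Lcp1 (0.10, 0.56 and 0.61, adjusted p = 0.0408) and Marcksl1 (0.24, 0.77 and 0.79, adjusted p = 0.0202). Tpm4, a tropomyosin (0.60 ± 0.09), Actg1, gamma actin (0.45 ± 0.08), Marcksl1, which binds actin at the membrane (0.60 ± 0.11), and Lcp1, the bundling protein L-plastin (0.42 ± 0.11), rose. Myo5a, a myosin that moves vesicles, fell from 354, 380 and 390 to 271, 261 and 237 CPM (-0.55 ± 0.09). Lcp1 was called only without low or high replicate 1 among the 6 fits that leave out 1 library (adjusted p from 0.105 to 0.15 in the other 4). Rac2, a small GTPase of neutrophil migration and oxidase activity, rose by 0.54, 0.48 and 0.63 (0.55 ± 0.09), and the exchange factors Fgd4 (-0.84 ± 0.10) and Arhgef18 (-0.64 ± 0.09) fell.

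Of 27 factors and targets of YAP, TAZ, SRF and MRTF, which are often read as responses to force, 4 rose and 1 fell (18.5%, beside 15.5% of all tested genes; 5 and 5 without replicate 1). Acta2, smooth muscle actin and a target of the SRF and MRTF factors, rose from 42.4, 37.6 and 37.6 to 109, 80.6 and 84.0 CPM (1.21 ± 0.09). Wwtr1, which encodes the co-activator TAZ, rose from 0.980, 2.28 and 2.83 to 1.64, 6.16 and 6.60 CPM (1.2 ± 0.23; adjusted p = 0.059 without high replicate 2). Axl, a receptor kinase that is a YAP target in other cells and that clears dying cells, fell from 36.0, 117 and 121 to 8.53, 26.8 and 29.1 CPM (-2.11 ± 0.20). Its differences were nearly the same in the 3 replicate numbers (-2.06, -2.13 and -2.05), and no high value reached a low one. Ankrd1, a common YAP target, had 0 counts in all 6 libraries. Of 12 mechanosensitive channel genes, 2 rose and 1 fell (1 and 1 without replicate 1). The rises were Lrrc8c (0.60 ± 0.14) and Lrrc8d (0.29 ± 0.09), subunits of volume-regulated anion channels. Lrrc8c was not called without a low or high library of replicate 2 or 3 (adjusted p from 0.0837 to 0.101), and Lrrc8d was not called in any of the 6 fits that leave out 1 library (0.0852 to 0.12). Piezo1, the stretch-gated cation channel, was at 237, 174 and 186 CPM in low and 184, 148 and 131 CPM in high (-0.37 ± 0.11), and it was not called without low replicate 1 (adjusted p = 0.102), low replicate 3 (0.191), high replicate 2 (0.198) or high replicate 3 (0.198). Tmc3, of a family related to the hair-cell transduction channel, rose from 0.679, 2.98 and 3.20 to 6.11, 21.3 and 24.1 CPM (2.87 ± 0.25), and Gja1, the gap junction protein connexin 43, from 2.34, 3.36 and 4.28 to 11.7, 24.1 and 29.8 CPM (2.68 ± 0.22). Both held in every fit that leaves out 1 library.

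Matrix genes followed. Fn1, fibronectin, went from 4.30, 32.4 and 35.7 CPM to 10.6, 107 and 215 CPM (1.99 ± 0.27), and Thbs1, thrombospondin 1, from 2820, 2190 and 2380 to 3290, 4380 and 4240 CPM (0.68 ± 0.14; adjusted p = 0.0506 without low replicate 3 and 0.0623 without high replicate 2). Lamc1, a laminin chain (0.84 ± 0.12), and Srgn, the granule proteoglycan serglycin (0.73 ± 0.14), also rose, and Spon1, a matrix protein, fell (-1.91 ± 0.27). Fn1 is also used as a monocyte marker. Of 30 matrix protein genes 7 rose and 4 fell, and of 40 proteases and inhibitors 7 rose and 10 fell. Plau, the urokinase that activates plasminogen, fell from 94.5, 34.1 and 29.7 to 45.2, 17.6 and 12.1 CPM (-1.09 ± 0.11), by 1.06, 0.95 and 1.29 in the 3 numbers. Mmp9, the gelatinase of neutrophil granules, was at 283, 1620 and 1690 CPM in low and 380, 1570 and 1720 in high and did not pass (0.13 ± 0.11).

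**Figure D2:**
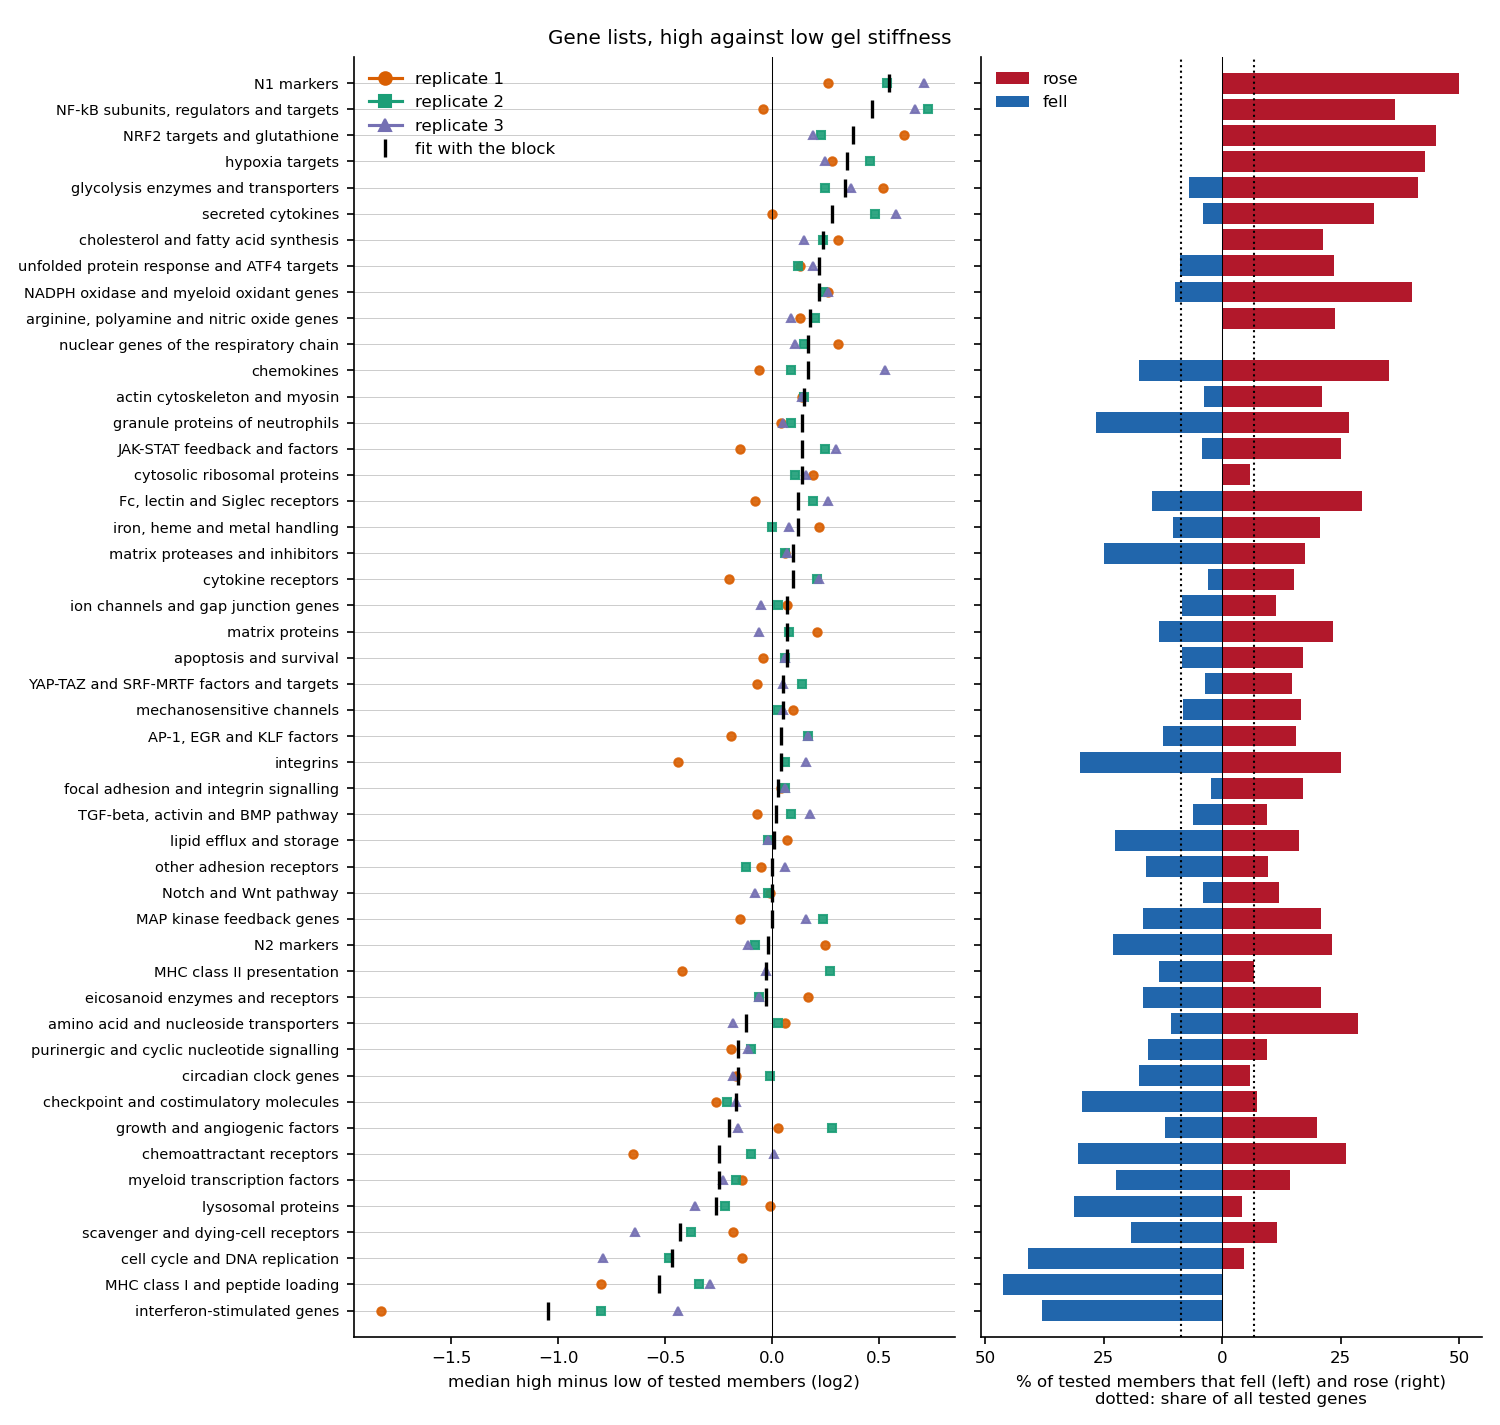
Gene lists (48), ordered by the median fitted log2 fold change of their tested members. Left, list medians within replicates 1, 2 and 3 and in the fit with the block; right, the percentage of tested members that rose or fell, with dotted lines at the shares of all tested genes (6.72% and 8.73%). The median of interferon-stimulated genes lies at -1.83, -0.80 and -0.44 in replicates 1 to 3 and that of the NF-kB list at -0.04, 0.73 and 0.67.

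Inside the cell, genes of NF-kB, the factor that switches on many inflammatory genes, had rises only among their calls. Of 33 tested, 12 rose, 0 fell and 21 did not pass. In 17 (51.5%, beside 8.36% of all tested genes) high minus low was called different in replicate 1. It was lower there in all 17. Without replicate 1 the counts were 26 rises and 2 falls. Nfkb1, the p50 subunit, went from 147, 134 and 134 to 217, 253 and 250 CPM (0.80 ± 0.09). Sod2, the mitochondrial superoxide dismutase and a known NF-kB target, went from 668, 482 and 487 to 1180, 1280 and 1310 CPM (1.22 ± 0.12). Ikbke, a kinase of the pathway (0.88 ± 0.11), and Zc3h12a, an RNase that limits cytokine messages (0.84 ± 0.13), rose too. For Nfkb1 and Sod2 the groups did not overlap. Birc3, a survival gene of the same pathway, rose by 0.15, 0.93 and 1.02 and was not called without a low or high library of replicate 2 or 3 (adjusted p from 0.0511 to 0.0684).

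Among 32 AP-1, EGR and KLF factors 5 rose and 4 fell, and among 24 MAP kinase feedback genes also 5 and 4. Without replicate 1 the counts were 14 and 5, and 10 and 4. Fosl1, an AP-1 subunit, rose from 1.96, 2.55 and 2.35 to 4.12, 12.2 and 15.3 CPM (2.11 ± 0.30), and Batf, another, rose (0.70 ± 0.10), whereas Batf2 fell (-1.19 ± 0.23; adjusted p = 0.0507 without high replicate 2). Ier3, an early response gene that bears on survival, rose evenly (0.56, 0.68 and 0.58). An AP-1 site (TGANTCA) stood in 7.20% of promoters of rises, 6.84% of those of falls and 5.39% of all. Phlda1, a feedback gene of growth factor signalling, went from 44.3, 26.0 and 34.3 to 143, 109 and 145 CPM (1.94 ± 0.13), with no overlap. The phosphatases that switch off MAP kinases went both ways. Dusp6 (-0.49 ± 0.08) and Dusp7 (-0.93 ± 0.16) fell, and Dusp16 was at 77.6, 73.2 and 70.1 CPM in low and 120, 455 and 503 CPM in high (2.08 ± 0.48, adjusted p = 0.0499). Dusp16 lost its call without low replicate 2 (adjusted p = 0.159), low replicate 3 (0.135), high replicate 2 (0.178) or high replicate 3 (0.16). Its difference in replicate 1 was smaller (-2.11 ± 0.15 relative to the others, adjusted p = 1.79e-05).

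In the JAK-STAT list 6 of 24 genes rose and 1 fell (12 and 1 without replicate 1). Socs3, which damps signalling from the receptors of interleukin-6 and of Csf3, rose from 118, 153 and 138 to 178, 329 and 398 CPM (1.07 ± 0.15). Pim2, a survival kinase induced by STAT5, rose more in replicate 1 (1.73) than in replicates 2 and 3 (0.86 and 0.71; difference 0.94 ± 0.17, adjusted p = 0.00541). In the TGF-beta pathway Smad3, a signal carrier, fell from 456, 290 and 301 to 275, 213 and 160 CPM (-0.69 ± 0.10), and in the Notch pathway the receptor Notch1 (0.51 ± 0.08) and its ligand Jag1 (1.2 ± 0.23) rose. Those lists held 3 rises and 2 falls of 32 (15.6%), and 3 and 1 of 25 (16.0%), near the 15.5% of all tested genes. Without replicate 1 they held 7 and 4, and 4 and 5, beside 26.1% of all genes called. Jag1 was not called without low replicate 2 (adjusted p = 0.0518) or high replicate 2 (0.0588). Adenosine and nucleotide genes changed at single points. Entpd1, the ectoenzyme CD39 that breaks down ATP outside the cell, fell from 54.1, 72.6 and 71.3 to 26.4, 30.5 and 29.8 CPM (-1.18 ± 0.10), while the adenosine receptor gene Adora2a rose from 48.8, 45.1 and 48.7 to 70.6, 115 and 115 CPM (1.05 ± 0.14). Neither gene overlapped between groups.

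Interferon-stimulated genes, the antiviral program switched on by type I and type II interferon, had no rise. Of 63 tested, 24 fell, with a median of -1.05, and without replicate 1 of every group 52 fell and 0 rose. The differences were far from even. In 46 of the 63 (73.0%, beside 8.36% of all tested genes) high minus low was called different in replicate 1. It was lower there in all 46. In 34 of the 63 the 3 high and 3 low values did not overlap, beside 12.7% of all tested genes. Ifit2, which blocks translation of viral RNA, went from 426, 589 and 608 CPM to 79.3, 153 and 244 CPM (-1.93 ± 0.39). The GTPases Iigp1 (11.3, 26.7 and 39.6 to 2.63, 5.60 and 5.76 CPM, -2.45 ± 0.37) and Tgtp2 (15.8, 33.6 and 33.6 to 2.70, 8.88 and 9.65 CPM, -2.07 ± 0.24) fell as well. Bst2, which tethers budding viruses, fell by 0.95, 0.79 and 0.78 (-0.84 ± 0.10), and Tor3a by 0.71, 0.66 and 0.59 (-0.65 ± 0.09). Tgtp2, Bst2 and Tor3a were called without any 1 library, Ifit2 was not called without low replicate 2 (adjusted p = 0.0905), high replicate 1 (0.102), high replicate 2 (0.147) or high replicate 3 (0.102), and the call of Iigp1 was lost without high replicate 2 (adjusted p = 0.0626) or high replicate 3 (0.055).

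An interferon-stimulated response element (GAAANNGAAA, either strand) stood in 3.21% of all promoters, 2.80% of those of rises and 5.96% of those of falls, and in 33 of 56 promoters (58.9%) of the interferon list. As that list was drawn up from genes that interferon switches on, its high share is no result of these data. The 15 largest falls named and the called members of the interferon, NF-kB, chemokine and cytokine lists were ranked. Among them, the 3 largest falls that hold the element before the start are shown with it in capitals, because the interferon list had 24 falls and 0 rises. Ifit1bl1 and Ifit1bl2 were among the 15 largest falls, and Ifit1bl2 is not a member of the interferon list. Only genes with a promoter in the table could be ranked in either set, so Iigp1 and Csf3, which were not matched, are not among them. The stretches are Tgtp2 at chr11:49064233-49064322, Ifit1bl1 at chr19:34602023-34602112 and Ifit1bl2 at chr19:34640745-34640853, all upstream of the start, on the minus strand and written on the gene's strand. Ifit1bl1 and Ifit1bl2 are members of the Ifit family. Ifit1bl1 fell by 1.78 ± 0.42 (26.9, 24.3 and 20.3 to 6.54, 5.60 and 9.19 CPM) and holds the element reversed. Ifit1bl2 fell by 1.75 ± 0.16 (42.7, 56.2 and 60.5 to 14.6, 16.2 and 16.1 CPM) and holds 2 copies. The call of Ifit1bl2 held in all 6 fits without 1 library, and that of Ifit1bl1 was lost without low replicate 2 (adjusted p = 0.114), high replicate 1 (0.103), high replicate 2 (0.166) or high replicate 3 (0.123).
Tgtp2: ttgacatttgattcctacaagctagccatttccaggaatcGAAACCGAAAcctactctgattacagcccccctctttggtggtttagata
Ifit1bl1: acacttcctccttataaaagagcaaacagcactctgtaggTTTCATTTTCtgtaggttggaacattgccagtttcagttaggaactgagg
Ifit1bl2: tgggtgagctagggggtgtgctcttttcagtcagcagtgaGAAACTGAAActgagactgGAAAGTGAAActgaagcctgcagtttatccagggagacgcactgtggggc

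Antigen presentation on class I molecules, a process that interferon raises, was lower as well: 0 of 26 genes rose and 12 fell (0 and 14 without replicate 1). The fall was uneven, with a list median of -0.80, -0.34 and -0.29 in replicates 1 to 3. B2m, the light chain, went from 4590, 6610 and 6450 to 2920, 3970 and 4710 CPM (-0.61 ± 0.11), and the heavy chain gene H2-D1 from 2980, 2530 and 2300 to 1840, 1890 and 1900 CPM (-0.47 ± 0.11). H2-T23, a non-classical heavy chain, fell by 1.11, 0.78 and 0.64 (-0.85 ± 0.12). Reads of class I heavy chains can be shared among near-identical copies, so the split between them is uncertain. B2m lost its call without high replicate 2 (adjusted p = 0.0694), and H2-D1 without low replicate 2 (0.0526) or high replicate 2 (0.0824). Class II genes held 1 rise and 2 falls of 15 (20.0%, beside 15.5% of all tested genes), and 4 and 2 without replicate 1. Among checkpoint and costimulatory molecules 2 of 27 rose and 8 fell: Pdcd1lg2, the PD-1 ligand PD-L2, fell from 58.2, 47.1 and 52.3 to 24.2, 27.5 and 24 CPM (-1.05 ± 0.11), and Slamf7 (-0.71 ± 0.09), Cd200r4 (-0.67 ± 0.09) and Cd84 (-0.76 ± 0.10), receptors of the SLAM and CD200 receptor families, fell. Cd274, the other PD-1 ligand, was at 868, 689 and 722 CPM in low and 714, 792 and 752 in high (-0.01 ± 0.10).

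Genes of glucose use rose more often than they fell. Slc2a1, the glucose transporter GLUT1, went from 179, 142 and 134 to 307, 256 and 255 CPM (0.85 ± 0.08), and Slc16a3, a lactate exporter, from 191, 279 and 276 to 274, 547 and 518 CPM (0.81 ± 0.10). Slc2a1 did not overlap between groups, and Slc16a3 did, at its high replicate 1. Of 29 glycolysis genes 12 rose and 2 fell, and Hk3, the hexokinase of myeloid cells, was among the falls (-0.45 ± 0.10; adjusted p = 0.0702 without low replicate 3 and 0.0665 without high replicate 3). Hypoxia targets, some of which are glycolysis genes, had 12 rises and 0 falls of 28, with Hilpda, a lipid droplet protein (0.92 ± 0.11), Ero1a, an oxidase of protein folding (0.54 ± 0.10), and Egln1, an oxygen sensor (0.49, 0.48 and 0.47), among them. The 29 nuclear genes of the respiratory chain had a median of 0.17.

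Targets of NRF2, the factor that answers oxidants, had 14 rises and 0 falls of 31 (14 and 2 without replicate 1). In 10 of the 31 (32.3%, beside 8.36% of all tested genes) high minus low was called different in replicate 1. It was higher there in 9 of the 10. Abcc1, a glutathione conjugate pump, rose from 491, 345 and 336 to 817, 602 and 558 CPM (0.76 ± 0.09). Txnrd1, thioredoxin reductase (0.56 ± 0.09), Srxn1, sulfiredoxin (0.66 ± 0.09), and Gsr, glutathione reductase (0.55 ± 0.10), rose in each number. Fth1, the ferritin heavy chain, was at 23100, 16300 and 14100 CPM in low and 31100, 18900 and 19200 CPM in high (0.36 ± 0.11, adjusted p = 0.0499), and was called only without low replicate 1 among the 6 fits that leave out 1 library (adjusted p from 0.0563 to 0.221 in the other 5). Metal genes outside that list also rose: Slc39a14, an importer of zinc and iron (1.33 ± 0.13), and Mt1, a metallothionein (1.2 ± 0.13). Slc40a1, the iron exporter ferroportin, fell from 403, 258 and 255 to 292, 142 and 118 CPM (-0.81 ± 0.11). Sterol synthesis and its control had 7 rises and 0 falls of 33 (21.2%, beside 15.5% of all tested genes). Insig1, a sterol sensor, was among the rises (0.71 ± 0.12). In the list of unfolded protein response and ATF4 targets 8 of 34 rose and 3 fell, with Asns, asparagine synthetase, among the rises (0.70 ± 0.12).

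Granule genes of neutrophils moved both ways. Lcn2, a binder of bacterial siderophores, rose from 420, 1530 and 1490 to 1290, 3160 and 3740 CPM (1.32 ± 0.16), and Chil1 (1.17 ± 0.13), Slpi, an inhibitor of elastase (1.02 ± 0.13), and Hp, haptoglobin (1.01 ± 0.14), rose with it. Elane, the elastase made at the promyelocyte stage, fell from 3.47, 34.6 and 33.3 to 1.14, 9.78 and 10.4 CPM (-1.77 ± 0.30), and Mpo, myeloperoxidase of the same granules, was at 12.2, 83.4 and 89.2 CPM in low and 3.27, 21.8 and 27.8 in high and did not pass (-1.88 ± 0.46, adjusted p = 0.0563). Elane lost its call without high replicate 2 (adjusted p = 0.0868) or high replicate 3 (0.0626). All of these differences had the same direction in the 3 numbers, and the groups overlapped for each of these genes but Slpi. The list as a whole gave 8 rises and 8 falls of 30. Rises and falls numbered 5 and 4 of 24 eicosanoid genes, 3 and 5 of 32 purinergic and cyclic nucleotide genes, 4 and 3 of 35 ion channel genes, 5 and 7 of 31 lipid handling genes, 3 and 5 of 26 scavenger and dying-cell receptors, 8 and 3 of 28 amino acid transporters, 6 and 3 of 35 apoptosis genes and 1 and 3 of 17 clock genes. Without replicate 1 they were, for these lists in turn, 5 and 5, 6 and 9, 7 and 10, 10 and 12, 3 and 13, 8 and 8, 10 and 5, and 5 and 5. With the block, the share called in these lists ran from 20.0% for ion channels to 39.3% for amino acid transporters, beside 15.5% of all tested genes. Of 20 oxidase and oxidant genes 8 rose and 2 fell, among them Cybb, the core of the NADPH oxidase, at 0.38, 0.43 and 0.51. Cybb lost its call without low replicate 3 (adjusted p = 0.0526) or high replicate 2 (0.0539).

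Cell cycle and DNA replication genes were lower, with 18 falls and 2 rises of 44 (33 and 2 without replicate 1). Top2a, the topoisomerase of dividing cells, went from 19.8, 91.4 and 90.0 to 10.9, 53.6 and 46.5 CPM (-0.86 ± 0.09), by 0.85, 0.77 and 0.95 in the 3 numbers. Ccnd1, cyclin D1 (-1.36 ± 0.22), Cenpe, a mitotic motor (-1.26 ± 0.21), and Rrm2, of nucleotide synthesis (-1.02 ± 0.18), also fell. Of 10 progenitor markers 3 fell and 0 rose, Myb among the falls (-1.42 ± 0.19), and their summed level was 57.7, 223 and 239 CPM in low and 25.9, 97.7 and 94.5 in high. The part of progenitor RNA in the cell cycle result was not tested.

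Lysosomal genes had 15 falls and 2 rises of 48 (27 and 4 without replicate 1). Psap, prosaposin, an activator of lipid breakdown, went from 13000, 10300 and 9650 to 11100, 6370 and 4830 CPM (-0.64 ± 0.14), and Lgmn, the protease legumain, from 783, 852 and 837 to 563, 295 and 275 CPM (-1.18 ± 0.23). The fall was smaller in replicate 1 for Lgmn (by 1.09 ± 0.12, adjusted p = 0.00025) and for Gpnmb, a lysosomal glycoprotein of macrophages (5710, 3350 and 3420 to 4610, 1410 and 1170 CPM, -1.04 ± 0.20; by 1.09 ± 0.18, adjusted p = 0.00374). Psap and Lgmn were not called without a low or high library of replicate 2 or 3 (adjusted p from 0.0669 to 0.0928 and from 0.0528 to 0.0945), and Gpnmb lost its call without low replicate 2 (adjusted p = 0.0715) or high replicate 2 (0.0877). Among receptors for dying cells, Mertk fell by 0.75, 0.84 and 1.21 in the 3 numbers. Cd163, the haemoglobin scavenger, rose (2.02 ± 0.29), from 0.0754, 1.84 and 2.41 to 0.355, 8.14 and 8.61 CPM. Myeloid transcription factors held 7 rises and 11 falls of 49 (11 and 19 without replicate 1), with Maf, a factor of macrophages (-1.13 ± 0.13), and Mxd1, an antagonist of MYC (-0.84 ± 0.13), falling and Lmo4, a co-regulator, rising evenly (0.73, 0.73 and 0.80). Ribosomal protein genes gave 2 rises and 0 falls of 34 (5.88%, beside 15.5% of all tested genes).

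**Figure D3:**
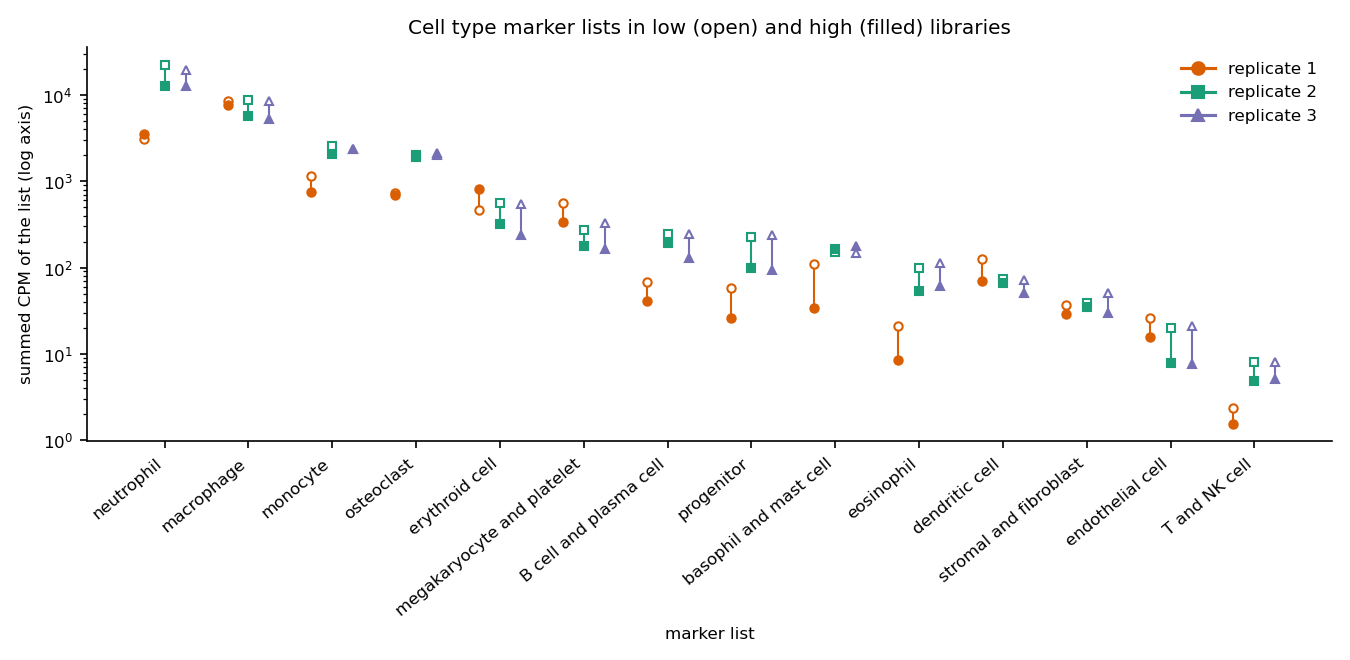
Summed CPM of 14 lists of cell type markers in low (open symbols) and high (filled symbols) libraries, on a log axis, by replicate number. In replicates 2 and 3 the neutrophil, macrophage, erythroid, megakaryocyte, progenitor and eosinophil sums, among others, are lower in high. In replicate 1 the neutrophil and erythroid sums are higher in high.

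Markers of other blood cells moved along with these results. The macrophage sum was 8440, 8780 and 8540 CPM in low and 7720, 5690 and 5200 CPM in high, with 3 rises and 6 falls of 15 members. In 10 of the 15 (66.7%, beside 8.36% of all tested genes) high minus low was called different in replicate 1. It was higher there in all 10. The neutrophil sum was 3040, 22200 and 19200 CPM in low and 3550, 12700 and 12600 CPM in high, with 1 rise and 4 falls of 15, and S100a8 and S100a9, its most abundant members, did not pass (-0.12 ± 0.21 and -0.29 ± 0.15). Monocyte markers (1150, 2560 and 2370 against 752, 2060 and 2390 CPM) had 4 rises and 2 falls of 10. No marker of these 3 lists had 0 counts in all 6 libraries. Lower in high in every number were the sums of eosinophil markers (21.3, 99.2 and 112 against 8.60, 53.7 and 61.3 CPM, 0 rises and 6 falls of 10), megakaryocyte and platelet markers (554, 274 and 328 against 333, 177 and 162 CPM, 0 and 7 of 10) and B cell markers (68.5, 245 and 244 against 41.2, 193 and 128 CPM, 0 and 3 of 9). Dendritic cell markers summed to 70.9 to 124 CPM in low and 51.2 to 69.7 in high, osteoclast markers to 728 to 2110 and 683 to 2010, basophil and mast cell markers to 109 to 153 and 33.7 to 176, stromal markers to 36.8 to 50.2 and 29.3 to 35.3, endothelial markers to 19.9 to 26.2 and 7.70 to 15.6, and T and NK cell markers to 2.34 to 8.02 and 1.56 to 5.11. In every number the dendritic cell, osteoclast, stromal, endothelial and T and NK cell sums were also lower in high, as were the macrophage and progenitor sums. The basophil and mast cell sum was lower in high in replicate 1 only. Cma1, a mast cell chymase, was at 0 in all 6 libraries. Whether shifts in cell mixture take part in the changes of single genes was not tested.

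**Figure D4:**
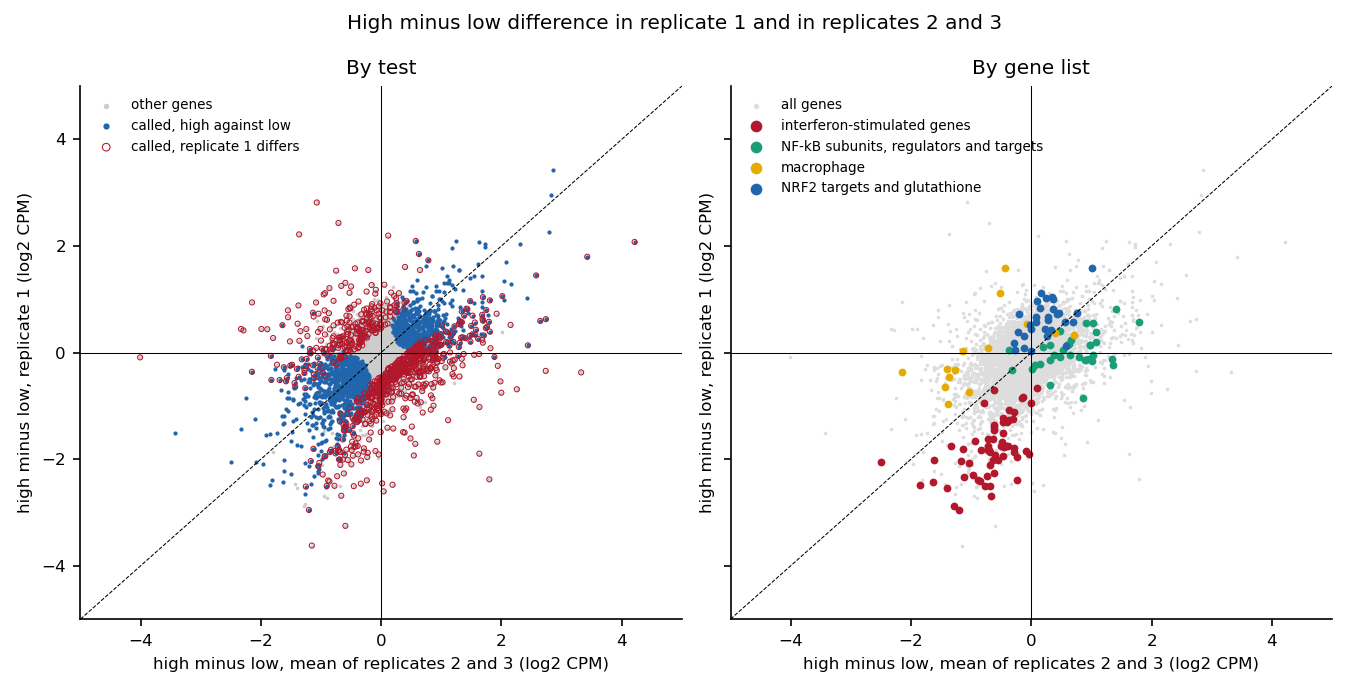
High minus low log2 difference in replicate 1 (vertical) against the mean of replicates 2 and 3 (horizontal) for the 9331 genes that averaged 5 CPM or more; the dashed line marks equal differences. Left, genes called between high and low and genes called different in replicate 1; right, members of 4 lists, with most interferon and NF-kB genes below the dashed line and most NRF2 genes and macrophage markers above it.

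The difference between replicate 1 and the other numbers was tested itself, as an interaction. By edgeR, 1011 genes (8.36%) were called. High minus low was higher in replicate 1 than in replicates 2 and 3 for 305 (2.52%) and lower for 706 (5.84%). In 627 of the 1011 high minus low had opposite signs in replicate 1 and in the mean of the others. In 231 the sign was shared and the difference larger in replicate 1, and in 153 it was shared and smaller. Only 219 of the 1011 were among the 1869 genes called between high and low, which is 11.7% of the latter and 21.7% of the former, and 1638 of the 1869 had the same sign in all 3 numbers and no interaction call. The count of interaction calls, 1011 here, was 514 without low replicate 2 and 1603 without high replicate 2.

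Genes with the largest positive interaction were Tmem26, Cd5l, Mgst2, Fam177a2, Ly6g, Lpl, Fabp4 and Igf1. Lpl, lipoprotein lipase, was at 320, 181 and 182 CPM in low and 435, 40.6 and 31.9 CPM in high, which is a log2 difference of 0.44, -2.15 and -2.51. Igf1, a growth factor made by macrophages, was at 40.6, 45.4 and 41.7 in low and 55.2, 12.4 and 9.45 CPM in high, and Ly6g, the surface antigen by which mouse neutrophils are usually recognised, at 5.05, 51.2 and 43.8 and at 9.81, 11.1 and 10.1. For Lpl, Fabp4 (a lipid carrier), Igf1 and Cd5l (a macrophage secreted protein), the lowest of the 6 values were those of high replicates 2 and 3. The largest negative interactions were those of Lif, Nr4a2, Sirpb1a, Flrt3, Steap4, Il6, Mcpt8 and Lipg. Nr4a2, an early response nuclear receptor, was at 4, 2.22 and 1.63 CPM in low and 3.06, 19.6 and 20.8 CPM in high. Lif, a cytokine of the interleukin-6 family, was at 16.1, 1.57 and 2.23 in low and 2.99, 6.73 and 6.93 in high, and Steap4, a metal reductase, at 11.3, 11.9 and 14.2 and at 6.97, 58.0 and 67.4. None of these 16 genes was called between high and low with the block.

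Middle libraries usually lay between. Of the 1869 called genes, the middle value was between low and high of its own number for 68.6% in replicate 1, 86.4% in replicate 2 and 88.7% in replicate 3, and in all 3 numbers for 963 (51.5%), beside 14.7% of all tested genes. Over the called genes middle reached a median of 57.5% of the step from low to high. The calls were made with high and low fixed at the ends, so these shares are descriptions.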

How the data were processed

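RNA was sequenced from 9 libraries, 3 per stiffness, grouped by title. The authors deposited, per library, whole-number counts per gene, FPKM values and a size column for each gene. HTSeq 0.6.1, DESeq2, HISAT2 2.0.1, cutadapt 1.9.1 and build GRCm39 were used, per the submitters' processing notes, which give no roles. Settings, annotation and strand handling of that counting are not stated there. The deposited FPKM values equalled the counts scaled by length and library total within 0.005 and were not used further.

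Counts of 12094 of 22173 genes passed filterByExpr (12214 for replicates 2 and 3 alone) and were tested in R 4.3.3 with edgeR 4.0.16 (TMM, robust quasi-likelihood fit of all 9 libraries with group and replicate number, 4 residual degrees of freedom, two-sided, Benjamini-Hochberg threshold 0.05). The replicate 1 interaction had 3 and the fit of replicates 2 and 3 alone 2 residual degrees of freedom. All adjusted p-values in the text are edgeR's. Standard errors were taken from the F statistic, as the size of the log2 value over root F. Within-number differences are of log2 CPM with a prior count of 2. The replicate number was used as a block because the rule of this comparison asked for it. As a description, deviations from group means of high and low libraries with the same number correlated at 0.765, 0.595 and 0.640. Those of numbers 2 and 3 correlated with each other as well (0.625 and 0.552), and those of number 1 with the others at -0.719 to -0.650.

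Genes named were, by a fixed rule, the 15 largest rises and 15 largest falls with at least 5 CPM and 1 direction in all 3 numbers, the 6 most abundant called genes of each direction, the 8 largest interactions of each direction, up to 4 called members with the smallest adjusted p per list, the N1 and N2 markers and the most abundant cell type markers. Predicted genes were left out. Members and lists were chosen with earlier results of these data known. The steps were tested on simulated counts. For the fit with the block, these held the same high minus low difference in every replicate number. They therefore say nothing about genes whose difference departs in replicate 1. Alternatives were no block, a block of 2 levels, high and low libraries only, DESeq2 1.42.0, RLE size factors, no filter, a stricter filter of 5 CPM, and leaving out each library or number. List counts without replicate 1 were added after seeing the data. Figures were drawn with matplotlib 3.10.9 in Python 3.11.15, and exact binomial intervals came from scipy 1.17.1. A few measured items are not reported here.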

Additional observations from a re-analysis of the deposited data

Results flagged for a closer look

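The difference between high and low itself differed between replicate 1 and replicates 2 and 3 in 1011 genes by edgeR's interaction test, in which replicate 1 has 1 library per group and is assumed to vary as replicates 2 and 3 do. For the 16 genes named from it, the size (log2 difference of high minus low in replicate 1, minus the mean of replicates 2 and 3) is given here. It was 3.96 for Tmem26, 3.92 for Cd5l, 3.6 for Mgst2, 3.33 for Fam177a2, 3.12 for Ly6g, 2.76 for Lpl, 2.75 for Fabp4 and 2.43 for Igf1. In the other direction it was -4.27 for Lif, -3.76 for Nr4a2, -3.62 for Sirpb1a, -3.18 for Flrt3, -2.96 for Steap4, -2.78 for Il6, -2.75 for Mcpt8 and -2.72 for Lipg. Neutrophil marker levels were lower in both replicate 1 libraries than in the other 4 high and low libraries, and their part in these differences was not tested.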

How the results depend on the processing

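The count of genes called between high and low was 1869 with the replicate block, 11 with no replicate block and 886 with high and low libraries only. It ranged from 262 (without replicate 2) to 3183 (without replicate 1) over the fits that leave out a library or a number, which hold fewer samples. DESeq2 called 1901, RLE size factors 1905, no filter 1859 and the stricter filter 1696. None of the 1869 genes changed sign in any of these fits. The interaction count of 1011 was 606 with high and low libraries only and 1556 with no filter, and ranged from 514 to 1603 when 1 library was left out. For replicates 2 and 3 alone, 3183 genes became 2108 by DESeq2, and the 73.9% with the same direction in replicate 1 became 71.3% in the fit of 4 libraries and 76.3% by DESeq2. Of 214 named genes called between high and low, 141 were called in all 6 fits that leave out 1 library.

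Signs turned only in named genes that were not called with the block. With no replicate block, Mrc1 and Ccl5 were each at 0.11. With high and low libraries only, Mrc1 was at 0.02 and Cd274 at 0.01, and Cd274 was at 0.00 by DESeq2, with RLE size factors and with no filter. Over the fits that leave out a library or a number, Cxcl10 ranged from -0.21 to 0.55, Cd86 from -0.25 to 0.49, Mrc1 from -0.53 to 0.35, Tgfb1 from -0.14 to 0.15, Mmp9 from -0.01 to 0.24, Ccl5 from -0.61 to 0.50 and Cd274 from -0.09 to 0.13. The cause was not tested.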
